A study of Mus musculus with 10 samples.

Results

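The 10 genes described here are Bnip3l, Bnip3, Ulk1, Map1lc3b, Gabarapl2, Atg5, Atg7, Becn1, Sqstm1 and Foxo3. They encode receptors that deliver mitochondria to autophagosomes, core components of autophagy, the cargo receptor Sqstm1 and the transcription factor Foxo3. They were chosen by symbol, and all 10 were found among the 24421 genes counted and among the 11846 genes tested. RNA-seq was done on R2 cells, erythroid precursors sorted from the marrow of transplant recipients as CD71+Ter119+, with 1 library per mouse. The groups were Ddx41+/+Trp53+/+ (3 mice), Ddx41+/-Trp53+/+ (2 mice), Ddx41+/+Trp53+/- (3 mice) and Ddx41+/-Trp53+/- (2 mice). The Ddx41+/- donors carried 1 floxed allele, Trp53+/- was a germline knockout, and all donors carried Rosa-CreERT2, a ubiquitously expressed Cre that tamoxifen activates. Every recipient, whatever its genotype, was lethally irradiated BoyJ, received tamoxifen and was killed at 8 weeks, and residual host cells were not separated in the counts. The age of the mice was not given in the sources used here.

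A maturing erythroblast rids itself of mitochondria and other organelles before it becomes a red cell, and part of this clearance runs through autophagy. Bnip3l (also called Nix) sits in the outer mitochondrial membrane and ties the organelle to Atg8-family proteins on the growing autophagosome, and loss of Bnip3l leaves mitochondria behind in red cells. Foxo3 is a transcription factor of erythroid maturation that also drives autophagy genes.

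The libraries held 7866648 to 20283930 counts. Ddx41 was at 21.9 to 26.6 CPM (each count scaled to its TMM-adjusted library total) in the 6 Ddx41+/+ mice and at 12.5 to 16.5 CPM in the 4 Ddx41+/- mice. Trp53 was at 57.4 to 68.1 CPM in the 5 Trp53+/+ mice and at 40.3 to 46.2 CPM in the 5 Trp53+/- mice, so both genes followed the labels. Of the erythroid identity genes, the transcription factors Klf1 and Gata1 were at 859 to 1023 CPM and 391 to 455 CPM. The 4 globin genes of the list were at or near 0 in the count table, with Hbb-bt at 0 in every mouse, Hbb-bs at 0 to 17 counts, Hba-a1 at 1 to 21 and Hba-a2 at 0 to 4, and the reason was not tested. Genes of other cells were also present: 7 neutrophil markers summed to 4500 to 7702 CPM, 8 macrophage markers to 237 to 563 CPM and 5 T cell markers to 5.88 to 12.4 CPM. The T cell sum was 5.88 to 7.12 CPM in Ddx41+/+Trp53+/+ and 7.24 to 12.4 CPM in the other genotypes. The macrophage sum was 237 to 326 CPM in Ddx41+/+Trp53+/- and 376 to 475 CPM in Ddx41+/-Trp53+/-. It was 294 to 563 CPM in Ddx41+/+Trp53+/+ and 354 to 457 CPM in Ddx41+/-Trp53+/+. The neutrophil sums overlapped between all genotypes. The 8 B cell markers are given below beside Pink1 and Foxo1.

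The sequences before the start sites are shown for 2 of the 3 genes whose promoter window held the E-box CACGTG, the DNA word bound by TFEB and related regulators of lysosome and autophagy genes. The RefSeq table (GRCm38.p6) held a window for 8 of the 10 genes, and none was given for Bnip3l and Becn1. Each line gives the 250 bases before the RefSeq start, 5′ to 3′ on the gene's strand, with the E-box in capitals.
Bnip3, chr7:138909507-138909756, minus strand: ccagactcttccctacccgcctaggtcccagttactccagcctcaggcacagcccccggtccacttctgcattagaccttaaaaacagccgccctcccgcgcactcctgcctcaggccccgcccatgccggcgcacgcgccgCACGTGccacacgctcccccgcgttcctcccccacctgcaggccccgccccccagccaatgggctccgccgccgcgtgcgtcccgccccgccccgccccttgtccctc
Atg5, chr10:44268089-44268338, plus strand: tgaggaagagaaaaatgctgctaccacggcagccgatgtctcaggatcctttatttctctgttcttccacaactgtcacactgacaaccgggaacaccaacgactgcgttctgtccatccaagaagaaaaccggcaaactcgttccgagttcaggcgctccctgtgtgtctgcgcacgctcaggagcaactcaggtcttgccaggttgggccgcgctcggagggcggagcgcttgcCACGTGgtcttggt
The E-box began 108 bases before the start of Bnip3 and 14 bases before that of Atg5. The third, in Atg7, lay before a RefSeq start that is downstream of the gene's GENCODE start. Among all 32851 promoter windows of this length, 6.02% held CACGTG on either strand. These windows were not matched for base composition, with a median of 52.4% GC and 6 CG steps. The Bnip3 window had 72.4% GC and 24 CG steps, that of Atg5 56.4% and 17, and that of Atg7 43.2% and 3. The shorter hypoxia-response core ACGTG, which every CACGTG contains, was in 4 of the 8 windows (Atg7, Bnip3, Gabarapl2 and Atg5) and in 16.6% of all windows. None of the 8 windows held the FOXO word GTAAACA (3.17% of all windows), the GATA word AGATAA (9.99%), the KLF1 word CCACACCC (3.20%) or the antioxidant element TGACNNNGC (10.2%), each searched on both strands.

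Levels per length spanned more than 2 orders of magnitude across the 10 genes. Bnip3l was the highest, at 210.9 ± 13.0 CPM per kb of merged exon (SD, n = 10 mice), and ranked 190th of the 11408 tested genes with a known length. Its homolog Bnip3, a mitophagy receptor known for its induction in hypoxia, was the lowest, at 0.606 ± 0.132 CPM per kb. Within a mouse the CPM per kb of Bnip3l was 237 to 494 times that of Bnip3.

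Between these 2 receptors came the cargo receptor Sqstm1 (p62), at 99.4 ± 7.26 CPM per kb, and the Atg8-family protein Gabarapl2, at 77.2 ± 5.40 CPM per kb. Foxo3 followed at 63.2 ± 4.46, the initiating kinase Ulk1 at 49.6 ± 5.34 and Map1lc3b (LC3B), the lipid-anchored Atg8 protein of the autophagosome, at 45.7 ± 3.42 CPM per kb. Becn1 (Beclin 1), a subunit of the lipid kinase complex that marks the site of autophagosome growth, stood at 38.3 ± 1.35 CPM per kb. The conjugation genes were far lower: Atg5, part of the ligase that attaches lipid to Atg8 proteins, at 6.09 ± 0.638 and Atg7, the activating enzyme before it, at 3.23 ± 0.319 CPM per kb. Each gene was above the next in this order in all 10 mice. The ranges over mice still overlapped between Sqstm1 and Gabarapl2, Gabarapl2 and Foxo3, Ulk1 and Map1lc3b, and Map1lc3b and Becn1. Dividing by the longest transcript instead put Map1lc3b (83.0 CPM per kb) above Foxo3 (69.9) and Becn1 (62.0) level with Ulk1 (61.7), so the middle of the order depends on the length used.

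**Figure D1:**
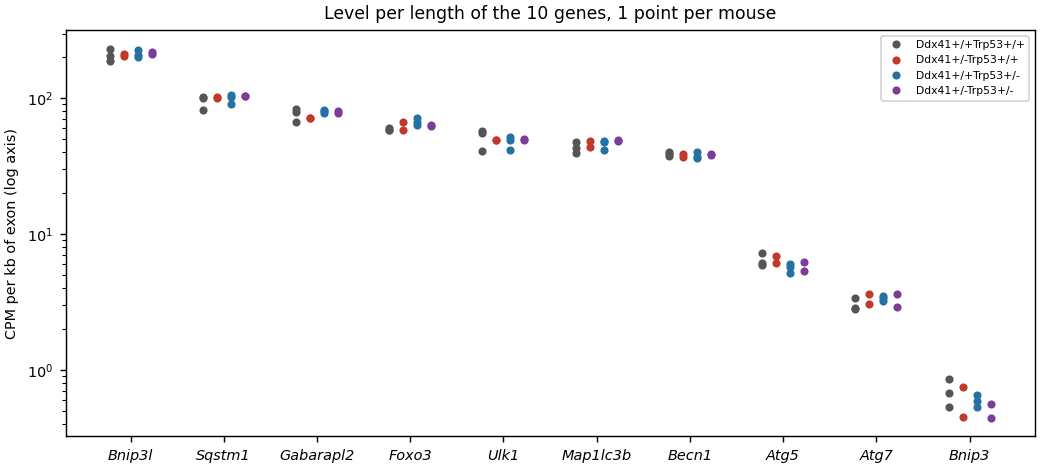
Level of each gene in CPM per kb of merged exon on a log axis, 1 point per mouse, colored by genotype and ordered from the highest mean to the lowest. Bnip3l lies at 187 to 232 CPM per kb in every genotype and Bnip3 below 1.

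All the genes but Bnip3 varied less from mouse to mouse than the median tested gene. The SD of log2 CPM over the 10 mice was 0.051 for Becn1, 0.090 for Bnip3l and 0.28 for Bnip3, against a median of 0.209 over the tested genes. That median takes in genes of all levels, and genes of like level were not compared. Bnip3 rested on 8 to 37 counts per library and is the one member measured imprecisely. All 10 genes together took 0.249% to 0.287% of a library's counts. Parts of the Bnip3l (18.7%), Bnip3 (15.3%), Gabarapl2 (13.4%) and Map1lc3b (5.91%) transcripts recur as identical 75-base stretches in a transcript of another gene (the largest share in Bnip3l-ps, Gm16439, Gm3724 and Gm6055, in that order), and how reads from them were counted is uncertain. Exons of Bnip3, Map1lc3b, Becn1 and Sqstm1 overlap a gene on the opposite strand, and the strand setting of the counting was not given in the sources used here. Becn1 and Sqstm1 lie on chromosome 11 with Trp53, at 31.7 and 19.4 Mb from it.

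The comparison of Ddx41+/- with Ddx41+/+ in Trp53+/+ mice asked what loss of 1 Ddx41 allele does to these transcripts. None of the 10 genes was called, a call being an adjusted p under 0.05 (edgeR's quasi-likelihood test) and a fold over 1.5, where 0.540% of all tested genes were. None had an unadjusted p under 0.05 (9.64% of all tested genes) and none had values that did not overlap between genotypes (24.9%). Their log2 fold changes ran from -0.15 for Bnip3 to 0.17 for Atg7, with a median of 0.02 against 0.001 over all tested genes, 6 higher and 4 lower.

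Bnip3l was at 789, 720 and 895 CPM in the Ddx41+/+Trp53+/+ mice and at 822 and 797 CPM in the Ddx41+/-Trp53+/+ mice. Both heterozygous values lay inside the control range, with a log2 fold change of 0.01 ± 0.08 (SE) and an adjusted p of 0.980. Ulk1 was at 363, 265 and 375 CPM in the controls and at 319 and 320 CPM in the Ddx41+/- mice (log2 fold change -0.06 ± 0.12). Sqstm1, which is itself degraded by autophagy as a protein, was at 339, 275 and 342 CPM against 341 and 336 CPM (0.09 ± 0.09). One control, replicate 11, was the lowest of all 10 mice for Bnip3l, Ulk1, Map1lc3b, Gabarapl2 and Sqstm1. The same mouse had the lowest summed level of the late erythroid markers, at 49069 CPM where the other mice were at 50391 to 55996 CPM. The part of this in the values was not tested. In bulk samples of this kind, fewer cells of a type and less RNA per cell cannot be told apart.

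**Figure D2:**
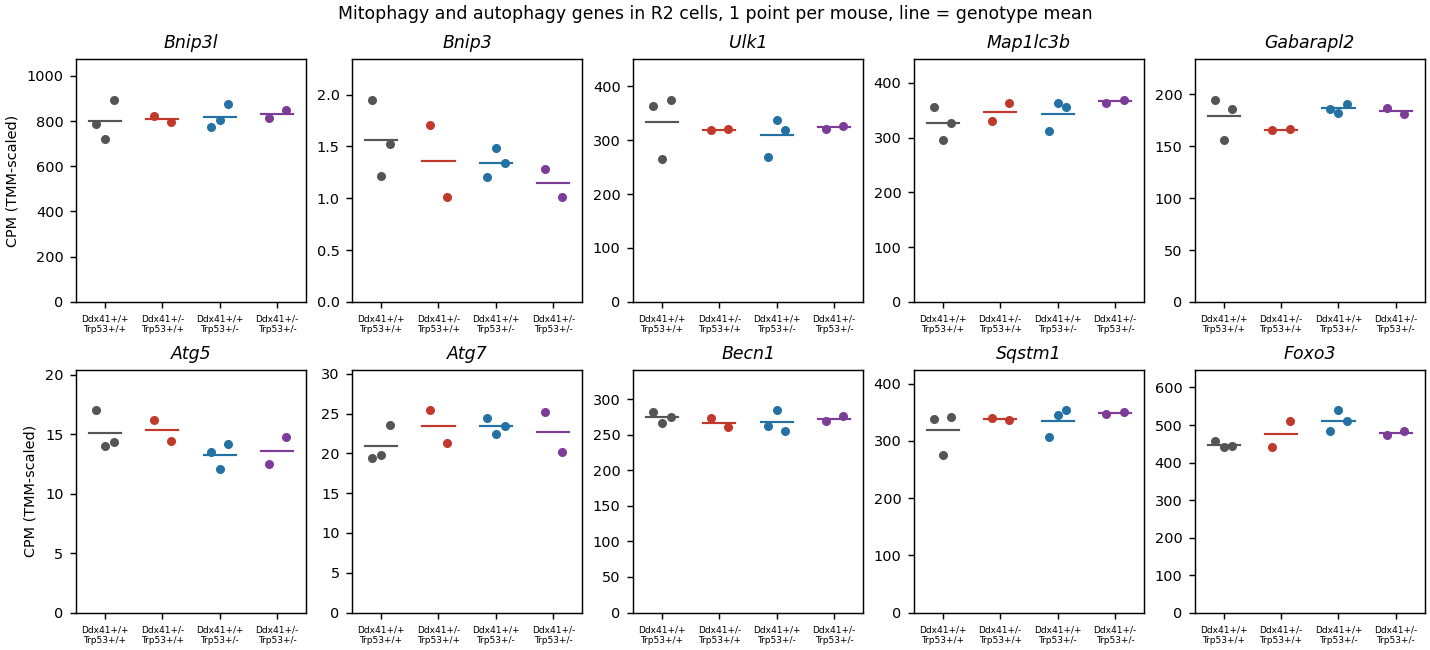
CPM (TMM-scaled) of each of the 10 genes, 1 point per mouse, by genotype, with a line at the genotype mean and every axis starting at 0. The genotypes overlap or lie close together in every panel, for example at 720 to 895 CPM for Bnip3l.

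In Trp53+/- mice, Ddx41+/- was again compared with Ddx41+/+. None of the 10 genes was called (0.0422% of all tested genes were) or had an unadjusted p under 0.05 (3.75%). Only Map1lc3b did not overlap, at 363 and 369 CPM in the Ddx41+/-Trp53+/- mice against 311, 363 and 355 CPM in the Ddx41+/+Trp53+/- mice, a log2 fold change of 0.09 ± 0.09 with an adjusted p of 1.000. Such separation was found in 20.0% of all tested genes. Bnip3l was at 815 and 849 CPM against 776, 802 and 874 CPM (0.03 ± 0.08). The log2 fold changes ran from -0.24 for Bnip3 to 0.09 for Map1lc3b, with a median of 0.03.

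Loss of 1 Trp53 allele was examined in Ddx41+/+ mice first. None of the 10 genes was called (0.912% of all tested genes), and Foxo3 was the only one with an unadjusted p under 0.05 (9.44%). Foxo3 was at 458, 441 and 444 CPM in the Trp53+/+ mice and at 483, 540 and 511 CPM in the Trp53+/- mice. All 3 heterozygous values were above all 3 controls, a separation shown by 14.1% of tested genes. The difference was 0.19 ± 0.07 on the log2 scale, or 1.14-fold, with an unadjusted p of 0.0117 that did not pass adjustment (adjusted p = 0.297). The 9 other genes ran from -0.21 for Bnip3 to 0.16 for Atg7, Bnip3l among them at 0.03 ± 0.08.

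With Ddx41+/-, the same loss of Trp53 also gave no call among the 10 genes (0.169% of all tested genes) and no unadjusted p under 0.05 (5.41%). Foxo3 was at 475 and 485 CPM in the Ddx41+/-Trp53+/- mice, inside the 440 and 510 CPM of the Ddx41+/-Trp53+/+ mice (0.02 ± 0.08). Gabarapl2 did not overlap, at 187 and 181 CPM against 166 and 167 CPM, with an adjusted p of 0.949 (0.15 ± 0.10). Ulk1 and Sqstm1 also did not overlap, at differences of 0.02 and 0.05 on the log2 scale. With 2 mice on each side, 37.3% of all tested genes did not overlap.

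**Figure D3:**
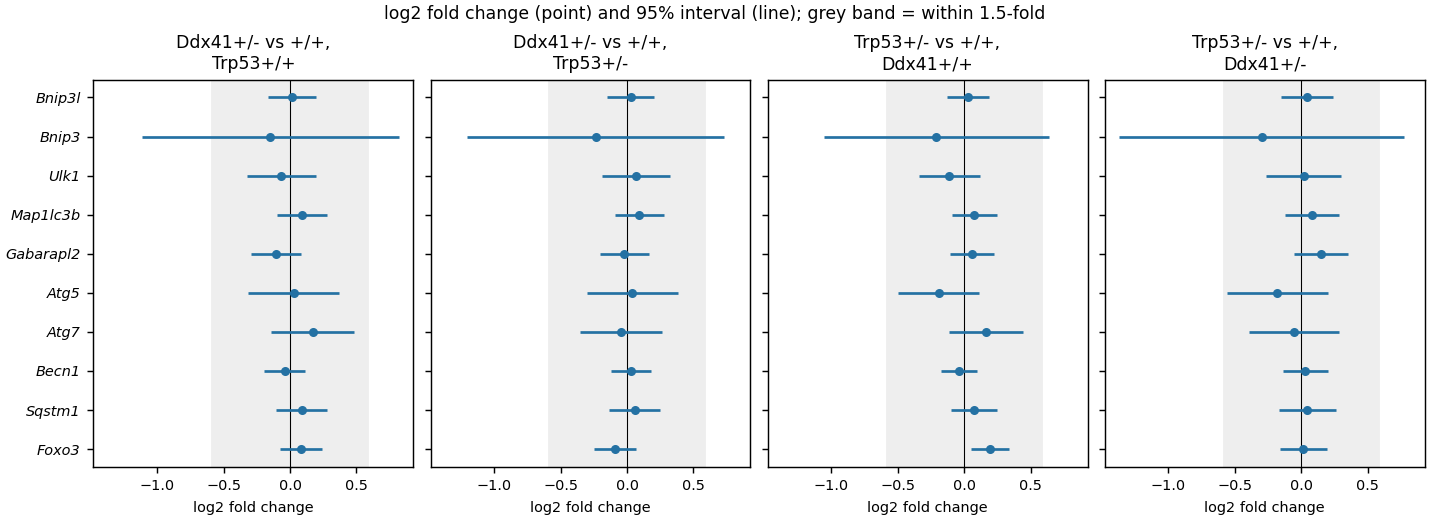
Log2 fold change (points) and 95% interval (lines) of the 10 genes in the 4 comparisons of 2 genotypes, with a grey band for changes within 1.5-fold. The intervals of all genes but Bnip3 lie within the band in each comparison.

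The intervals show how large a change these mice leave room for. In each of the 4 comparisons the 95% interval of 9 of the 10 genes lay within 1.5-fold in either direction, Bnip3 being the exception in each. For Bnip3 the widest interval, in the comparison of Trp53 genotypes with Ddx41+/-, ran from -1.37 to 0.77 on the log2 scale. The difference between the Ddx41 effects in the Trp53 genotypes was not called for any of the 10 genes (0.0675% of all tested genes) and none had an unadjusted p under 0.05 (5.01%). None of the 10 had effects in opposite directions without overlap, either for Ddx41 between Trp53 genotypes (1.62% of all tested genes) or for Trp53 between Ddx41 genotypes (1.58%). Over both Trp53 genotypes, Ddx41+/- gave no call (0.110%) and no unadjusted p under 0.05 (8.98%), with log2 fold changes from -0.19 to 0.09. Over both Ddx41 genotypes, Trp53+/- gave no call (0.287%), and only Foxo3 had an unadjusted p under 0.05 (11.2%), at 0.12 and an adjusted p of 0.417. DESeq2 called none of the 10 genes in any of these comparisons. In edgeR the targeted genes themselves missed a call in the comparisons of 2 genotypes. Ddx41 changed by -0.63 on the log2 scale with Trp53+/+ (adjusted p = 0.0887) and by -0.78 with Trp53+/- (adjusted p = 0.177). Trp53 changed by -0.42 with Ddx41+/+ (adjusted p = 0.0327, fold under 1.5) and by -0.55 with Ddx41+/- (adjusted p = 0.0630). Over both Trp53 genotypes Ddx41 was called (-0.70, adjusted p = 0.0173).

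A wider list of 83 genes of autophagy and mitophagy, the 10 included, was then read in the same fits. All but Prkaa2 were tested. In Ddx41+/- against Ddx41+/+ with Trp53+/+, 1 of the 82 tested genes rose and none fell (0.540% of all tested genes were called). An unadjusted p under 0.05 was found for 7 of the 82 (8.54%), against 9.64% of all tested genes. The gene that rose was Pink1, the kinase that recruits the ubiquitin ligase Parkin to damaged mitochondria. It was at 171, 125 and 174 CPM in the Ddx41+/+Trp53+/+ mice and at 264 and 343 CPM in the Ddx41+/-Trp53+/+ mice, so that the groups did not overlap. The change was 1.93-fold (log2 0.95 ± 0.13, adjusted p = 0.00197), and without Ddx41+/-Trp53+/+ replicate 34, the shallowest library, the adjusted p was 0.0746. The transcription factor Foxo1 (0.99 ± 0.23, adjusted p = 0.0710) and Pik3c3, the catalytic subunit of the Becn1 complex (-0.997 ± 0.24, adjusted p = 0.0736), did not pass in edgeR. DESeq2 called both, with an adjusted p of 0.0117 for Foxo1 and 0.00580 for Pik3c3.

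In Trp53+/- against Trp53+/+ with Ddx41+/+, 1 of the 82 genes rose and none fell (0.912% of all tested genes were called), and 7 (8.54%) had an unadjusted p under 0.05, against 9.44% of all tested genes. That gene was Foxo1, at 6.64, 4.03 and 5.95 CPM in the Trp53+/+ mice and at 10.5, 12.9 and 15.5 CPM in the Trp53+/- mice. The log2 fold change was 1.24 ± 0.21 (adjusted p = 0.00687), and without Ddx41+/+Trp53+/- replicate 24 the adjusted p was 0.0569. Pink1 (0.47 ± 0.12, adjusted p = 0.0834) and Foxo4 (0.18 ± 0.06, adjusted p = 0.278) had the next smallest p-values outside the 10 genes. Over both Ddx41 genotypes Foxo1 was also the 1 gene called of the 82 (0.287% of all tested genes were; 0.89 ± 0.19, adjusted p = 0.0429), a call lost without 8 of the 10 mice in turn.

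The 8 B cell markers, which include Pax5 and Ebf1, also differed in level between genotypes. Their summed level was 205 to 343 CPM in Ddx41+/+Trp53+/+, 340 to 486 in Ddx41+/-Trp53+/+, 358 to 435 in Ddx41+/+Trp53+/- and 394 to 451 in Ddx41+/-Trp53+/-, and none of the 8 was at 0 in all mice. Most of this sum was Cd74, at 142 to 324 CPM. The mean log2 CPM of the 8 markers weighs each gene alike. It was 2.80 to 3.75 in Ddx41+/+Trp53+/+ and 4.11 to 4.91 in the other genotypes. The summed early erythroid markers were at 51.1 to 74.2 CPM in Ddx41+/+Trp53+/+ and at 69.5 to 91.5 CPM in the other genotypes. Their part in the Pink1 and Foxo1 values was not tested.

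**Figure D4:**
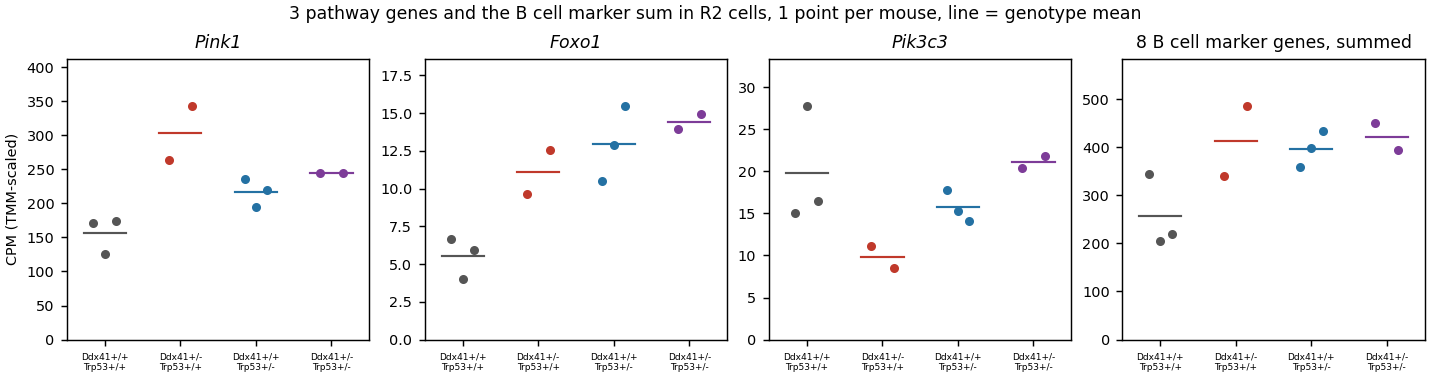
CPM (TMM-scaled) of Pink1, Foxo1 and Pik3c3 and the summed CPM of 8 B cell markers, 1 point per mouse, with a line at the genotype mean. Foxo1 and the B cell markers are lowest on average in Ddx41+/+Trp53+/+ (4.03 to 6.64 and 205 to 343 CPM).

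In the Trp53+/- mice, none of the 82 genes was called for Ddx41+/- (0.0422% of all tested genes were), and 2 (2.44%) had an unadjusted p under 0.05, against 3.75% of all. The 3 smallest p-values outside the 10 genes were those of Vmp1, a membrane protein of autophagosome formation (-0.20 ± 0.08), Atg4d, an Atg8 protease (-0.16 ± 0.07), and Sesn2, a stress-induced inhibitor of mTORC1 (-0.29 ± 0.14), each with an adjusted p of 1.000. In the Ddx41+/- mice, none of the 82 was called for Trp53+/- (0.169% of all tested genes were), and 2 (2.44%) had an unadjusted p under 0.05, against 5.41% of all. Pik3c3 (1.09 ± 0.26, adjusted p = 0.151), Pink1 (-0.31 ± 0.14, adjusted p = 0.906) and Atg14, the subunit that directs the Becn1 complex to autophagy (0.30 ± 0.14, adjusted p = 0.915), came closest in edgeR. DESeq2 called Pik3c3 in this comparison (adjusted p = 0.0109). The list's median log2 fold change stayed between -0.016 and 0.024 in the 4 comparisons.

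**Figure D5:**
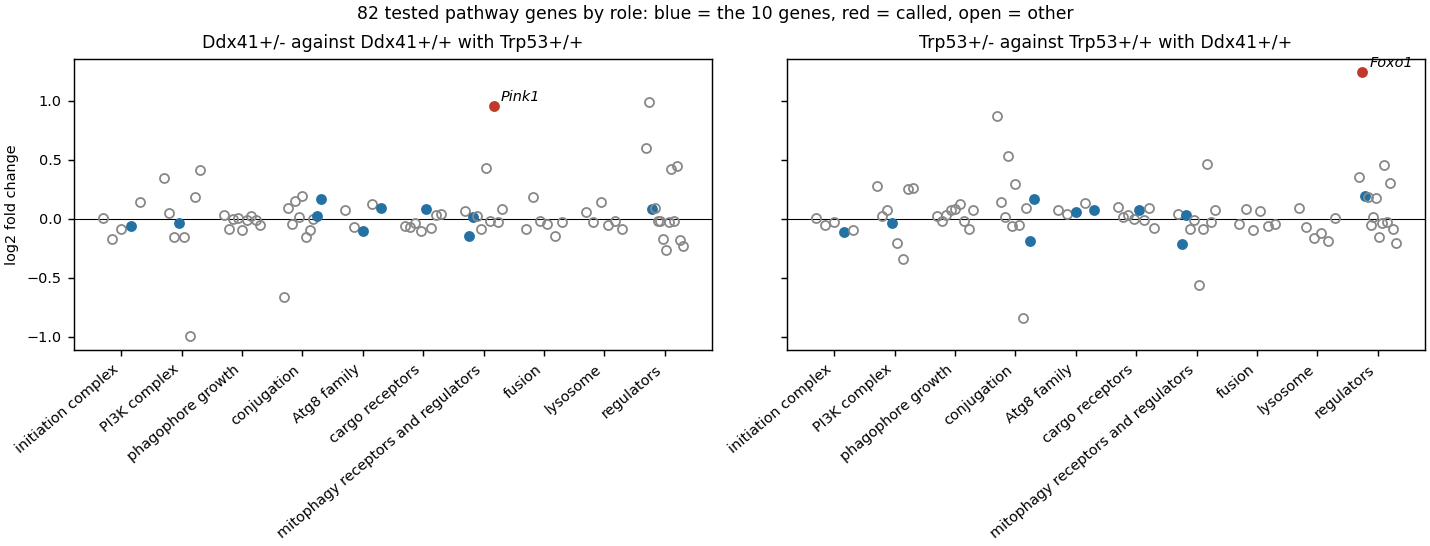
Log2 fold change of the 82 tested genes by role, for Ddx41+/- against Ddx41+/+ with Trp53+/+ and for Trp53+/- against Trp53+/+ with Ddx41+/+, with the 10 genes in blue, called genes in red and the rest open. Pink1 (0.95) and Foxo1 (1.24) are the called genes.

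By role, no gene of the initiation complex (5 genes), the Becn1 kinase complex (8), phagophore growth (9), conjugation (11), the Atg8 family (5), the cargo receptors (8), fusion (6) or the lysosome (6) was called in any of the 7 comparisons. The calls fell to Pink1 among 10 mitophagy receptors and regulators and to Foxo1 among 14 tested upstream regulators.

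Across the 10 mice, 19 correlations were computed, of Foxo3 with the other 9 genes and of the mean log2 CPM of 9 late erythroid genes with all 10. None passed adjustment (permutation test, smallest adjusted p = 0.273). The largest was between the late erythroid genes and Gabarapl2, with r = 0.67 (p = 0.032 by permutation, adjusted p = 0.273) and Spearman's rho = 0.52 (p = 0.135 by permutation), and r was 0.56 without the 2 mice farthest from the median. With Foxo3, r was 0.66 (p = 0.034 by permutation, adjusted p = 0.273) and rho 0.59, falling to r = 0.22 and rho = 0.24 without those 2 mice and to r = 0.28 when values were centred on genotype means. For Sqstm1, r was 0.66 (p = 0.063 by permutation) with rho = 0.62, and without those 2 mice r was 0.0058 and rho was 0.50, so Pearson's r rested on them while the rank correlation fell less. With Bnip3l r was 0.59 (p = 0.072 by permutation) with rho = 0.52, and 0.55 without them. Centring on genotype means, which lowered r with Foxo3, raised it with Gabarapl2 (0.69), Sqstm1 (0.90) and Bnip3l (0.77). The largest centred r was with Ulk1, at 0.96 against 0.43 before (adjusted p = 0.132 by permutation within genotypes). With Ddx41+/+Trp53+/+ replicate 11 also left out, the centred r of these was -0.64, 0.65, 0.48 and 0.86, in that order.

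As a description, the tested genes whose log2 CPM followed Bnip3l most closely over the 10 mice were Dcp2 (r = 0.94), Ube2b (0.93), Gng12 (0.91), Crot (0.91) and Ube2h (0.90). Among the other 9 genes Sqstm1 was the closest (r = 0.81, with 51 tested genes closer), followed by Ulk1 (0.68), while Becn1 (0.044) and Atg5 (0.073) followed it least. The points share library depth and scaling.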

How the data were processed

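Per the labels, RNA of about 100000 sorted R2 cells per mouse was made into TruSeq libraries. The values deposited by the authors are unnormalized read counts by gene symbol for 10 libraries, under a name that leaves out mice 35 and 45, which were not analysed here. The submitters' processing notes name FastQC 0.11.7, HISAT2 2.0.5, featureCounts 1.5.2 and mm10; the annotation and strand setting of the counting were not given in the sources used here.

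The analysis used edgeR 4.0.16 (R 4.3.3). Genes were filtered by genotype (12575 removed, 11846 kept), libraries were TMM-scaled, and all 10 mice entered 1 quasi-likelihood model with a mean for each genotype, with an additive model for effects over both genotypes of the other gene. P-values are two-sided, and adjustment (Benjamini-Hochberg) covered every tested gene. The SE was the absolute log2 fold change over the square root of F. Log2 CPM had a prior count of 2. Correlations used 100000 permutations, or all permutations within genotypes where values were centred. Lengths and positions came from GENCODE M21 (GRCm38), and promoters from RefSeq. Tested on simulated data with 11680 genes, the Ddx41 comparison with Trp53+/+ called 64% of the 100 genes changed by a log2 of 1. It called 90% of the 100 genes changed by a log2 of 2. It also made 11 false calls over the whole set, and smaller changes were not simulated. DESeq2 1.42.0 and other settings were alternatives.

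The 10 genes and the lists were chosen with earlier results of these data known. Besides the 10 genes, those named are listed genes called in any comparison, the 3 with the smallest p in each comparison of 2 genotypes, the 5 most like Bnip3l, the targets Ddx41 and Trp53, and genes whose effects lay in opposite directions. Counting intervals were not used, and mice were the replicates.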

Additional observations from a re-analysis of the deposited data

Results flagged for a closer look

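In 4 genes of the wider list the effect of 1 genotype lay in opposite directions, without overlap between mice, depending on the other. For the Ddx41 effect this held for 1 of the 82 tested listed genes and for 1.62% of all tested genes, and for the Trp53 effect it held for 3 of the 82 and for 1.58% of all tested genes. Pik3c3 was lower with Ddx41+/- in Trp53+/+ mice (-0.997 on the log2 scale) and higher in Trp53+/- mice (0.43). The difference of these effects was 1.43 ± 0.32 (SE), with an unadjusted p of 0.000424 that did not pass adjustment in edgeR (adjusted p = 0.237). Its values were 15.03, 27.8 and 16.5 CPM in Ddx41+/+Trp53+/+, 11.1 and 8.51 in Ddx41+/-Trp53+/+, 17.8, 15.3 and 14.1 in Ddx41+/+Trp53+/- and 20.4 and 21.9 in Ddx41+/-Trp53+/-. DESeq2 gave this difference an adjusted p of 0.0137.

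Pink1 was higher with Trp53+/- in Ddx41+/+ mice (0.47) and lower in Ddx41+/- mice (-0.31), a difference of -0.78 ± 0.19 with an unadjusted p of 0.000705 and an adjusted p of 0.334 in edgeR and of 0.0193 in DESeq2. For the same effect, the difference was -0.17 for Atg4d and 0.32 for Nrbf2, a subunit of the Becn1 complex, both with an adjusted p of 1.000.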

How the results depend on the processing

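None of the 10 genes was called in any comparison under any of the 16 alternatives (DESeq2, DESeq2's size factors, only the 2 genotypes of a comparison, no filter, a minimum of 10 counts per library, no limit on the fold, and each mouse left out), and their smallest adjusted p was 0.182. Bnip3 was not tested at 10 counts. Their sign was not stable: 20 of 41 values, all at most 0.30 from 0 in the full fit, changed sign in at least 1 of these fits, always on leaving out a mouse. For the Ddx41 effect with Trp53+/+, leaving out 1 mouse at a time gave log2 fold changes of -0.022 to 0.18 (Foxo3), -0.070 to 0.12 (Atg5), -0.0043 to 0.14 (Sqstm1), -0.051 to 0.10 (Bnip3l), -0.20 to 0.026 (Ulk1) and -0.62 to 0.13 (Bnip3). For the Ddx41 effect with Trp53+/-, they were -0.075 to 0.15 (Atg5), -0.0023 to 0.098 (Sqstm1), -0.0032 to 0.076 (Becn1), -0.011 to 0.077 (Bnip3l), -0.020 to 0.14 (Ulk1), -0.21 to 0.12 (Atg7) and -0.043 to 0.016 (Gabarapl2). For the Trp53 effect with Ddx41+/+, they were -0.021 to 0.13 (Sqstm1), -0.042 to 0.12 (Bnip3l) and -0.030 to 0.13 (Gabarapl2). For the Trp53 effect with Ddx41+/-, they were -0.077 to 0.12 (Foxo3), -0.0011 to 0.076 (Becn1), -0.23 to 0.10 (Atg7) and -0.57 to 0.18 (Bnip3).

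In the wider list, the count of called genes in the Ddx41 effect with Trp53+/+ was 1, 3 with DESeq2, 3 without the filter, and 0 to 2 on leaving out a mouse. In the Trp53 effect with Ddx41+/- it was 0, and 1 with DESeq2, without the filter or with only the 2 genotypes, and 0 to 1 on leaving out a mouse. For the difference of the Ddx41 effects it was 0, 2 with DESeq2 and 2 without the filter. In the Trp53 effect with Ddx41+/+ and over both Ddx41 genotypes it ranged from 0 to 1 on leaving out a mouse. The unfiltered fit gave an infinite prior degrees of freedom, against 10.1 in the filtered one, so it set aside each gene's own spread between mice, and its calls are not independent evidence for those of DESeq2.

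None of the 19 correlations passed under any setting. The centred settings could hardly pass, because few permutations exist within genotypes of 2 or 3 mice. Their smallest adjusted p was 0.132, and 0.396 without Ddx41+/+Trp53+/+ replicate 11 (permutation within genotypes). Centred on genotype means, r changed sign to -0.64 for Foxo3 with Atg7, 0.18 with Becn1 and 0.086 for the late erythroid genes with Atg5. Without the 2 farthest mice it changed to -0.089 for Foxo3 with Ulk1, and for the late erythroid genes to -0.031 with Bnip3, -0.15 with Ulk1, -0.34 with Map1lc3b and -0.45 with Becn1. Centred and without Ddx41+/+Trp53+/+ replicate 11, an alternative chosen after seeing the data, it was -0.11 for Foxo3 with Bnip3l, -0.042 with Gabarapl2, -0.70 with Atg7 and 0.15 with Becn1, and -0.64 for the late erythroid genes with Gabarapl2. No paired analysis was made, because no pairing of mice between genotypes was found in the sources used here. Whether recipients of a genotype shared a donor was not found either. With 2 or 3 mice per genotype, the number of mice sets the precision, and for Bnip3 also the 8 to 37 counts.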
